A study of Caenorhabditis elegans with 2 samples.

Results

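CCCH zinc finger proteins bind RNA through short fingers in which 3 cysteines and a histidine hold a zinc ion. In *Caenorhabditis elegans* they are best known from oocytes and early embryos, where they control the translation and decay of maternal messenger RNAs and separate germline from somatic fates. In mammals, tristetraprolin, the founding member of the class with paired fingers, binds AU-rich elements and recruits deadenylases. NHR-85 is a nuclear hormone receptor related to the Rev-Erb receptors of mammals and acts in the developmental timing of larvae. The data described here are its binding sites at 9 genes of this family, of 19973 protein-coding genes in the nuclear genome. The genes are ccch-1, ccch-2, ccch-3, pos-1, mex-5, mex-6, oma-1, oma-2 and pie-1. They were chosen from the family with the peak signals of these same lists known, so their summits and signals are given as a description and no test was run on them.

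The sites come from chromatin immunoprecipitation with sequencing (ChIP-seq) of whole hermaphrodite larvae of the first stage (L1). The larvae were collected 6 h after synchronization by starvation after bleaching. Both samples were of strain OP539, which carries unc-119(tm4063) III and the insertion wgIs539 and stably expresses NHR-85 with a GFP-FLAG tag at its C-terminus. DNA was recovered with an antibody against GFP. There was 1 group of 2 biological replicates, with no untagged strain and no second condition, so sites that any GFP fusion would give cannot be told apart from sites of NHR-85. The promoter that drives the fusion, its copy number and the feeding state during the 6 h are not given in the labels. Whole animals were used, and a site bound in few cells cannot be told apart from a site bound weakly in many. This bears on the germline, which in newly hatched larvae is a pair of precursor cells among the somatic cells.

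The 4 deposited lists on the ce11 build were read. After the authors' filter on the irreproducible discovery rate (IDR), the strictest list held 2404 distinct peaks. The IDR is judged from how alike peaks rank between replicates. The list called on the reads of both replicates together held 8389, and the lists of replicates 1 and 2 held 8092 and 13289. Each IDR-thresholded summit at the family members had the same signal and rank in the pooled list, so these lists are not separate evidence. Their ranks were equal in both down to 2157, the lowest of them, so a place in the strictest list followed the pooled signal there. Such a place does not by itself show that a site ranked alike in both replicates. The filter also kept summits of unlike rank. A ccch-1 summit ranked 4256 in replicate 1 and 777 in replicate 2, and the pos-1 summit ranked 2611 and 969. A peak's signal is in the peak caller's units. It was compared within a list, except where replicates 1 and 2 were set side by side, without any scaling for depth. The lowest signal listed was 97.2 in the IDR-thresholded list, 40.6 in the pooled list, 25.0 in replicate 1 and 15.8 in replicate 2, and a gene without a summit had none above these limits. Read numbers are not in the lists, so the depth behind each signal is unknown. For each gene, every summit in the gene body or within 10 kb upstream of it was taken. Promoters reached 1000 bp upstream and 200 bp downstream from each annotated transcript start.

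ccch-1 had more summits in its window than any other member in each list. It held 9 of 24 in the pooled list, 8 of 25 in replicate 1 and 13 of 31 in replicate 2. Of the 12 IDR-thresholded summits found in the windows of the 9 genes, ccch-1 held 7, of which 1 was nearest to the start of pafo-1. oma-2 held 3 of the IDR-thresholded summits, and ccch-3 and pos-1 held 1 each. None was found at ccch-2, mex-5, mex-6, oma-1 or pie-1. The share of members with a summit was 4 of 9, where 24.2% of all protein-coding genes had one in a window made by the same rule. In promoters, 2 of 9 members had a summit, ccch-1 and ccch-3, where the share of all protein-coding genes was 8.09%. The counts are small, and neither share was tested against the background. The 2 members with promoter summits were nearest to them among coding genes, whereas every other summit of an IDR-thresholded peak outside ccch-1 was nearer to the start of a neighbour.

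**Figure D1:**
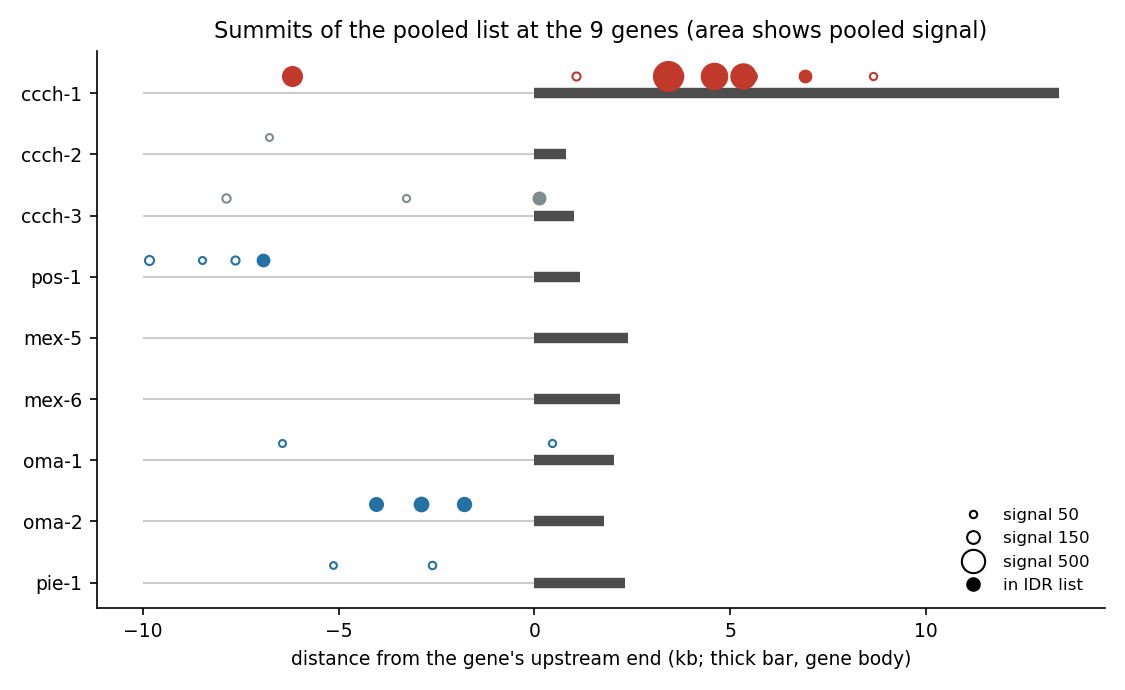
Summits of the pooled list in the windows of the 9 genes, by distance in kb from each gene's upstream end, with the gene body as a thick bar. Circle area shows the pooled signal and filled circles are also in the IDR-thresholded list. The 3 largest filled circles of ccch-1 lie inside the gene body, and the next largest lies 6190 bp upstream of it. The 3 of oma-2 lie between 1805 and 4045 bp upstream, and mex-5 and mex-6 have none.

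The sequences under the ccch-1 summits show which bases lie at the strongest of these sites. ccch-1 (WBGene00009532) lies on the plus strand of chromosome V, from 11527831 to 11541219 in ce11. Each line gives 101 bp centred on an IDR-thresholded summit, read 5′ to 3′ on the plus strand of the RefSeq copy of ce11, with the searched motifs in capitals. Motifs were searched on both strands. AGGTCA is the hexamer that nuclear receptors bind. TAGGTCA is its extended form, bound by receptors of the Rev-Erb type, and each of its matches also counts as a match of the hexamer. TGATAA is bound by factors of the zinc finger class that directs gut and epidermal development. CACGTG is the E-box of basic helix-loop-helix factors. GAGAGA is a simple repeat. The first 3 sequences are those of the strongest summits, at chrV:11531192-11531292, chrV:11532371-11532471 and chrV:11533104-11533204. The fourth, at chrV:11533303-11533403, is shown because it alone among the 12 summits had the AGGTCA hexamer, on the minus strand.
ccch-1 summit of rank 46: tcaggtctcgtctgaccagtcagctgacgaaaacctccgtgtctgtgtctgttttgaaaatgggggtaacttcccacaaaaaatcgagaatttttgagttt
ccch-1 summit of rank 84: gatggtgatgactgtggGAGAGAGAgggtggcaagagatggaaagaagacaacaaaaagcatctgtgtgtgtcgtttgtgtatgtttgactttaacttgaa
ccch-1 summit of rank 106: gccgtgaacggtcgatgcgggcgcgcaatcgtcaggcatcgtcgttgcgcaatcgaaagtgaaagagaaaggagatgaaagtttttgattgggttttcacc
ccch-1 summit of rank 2157: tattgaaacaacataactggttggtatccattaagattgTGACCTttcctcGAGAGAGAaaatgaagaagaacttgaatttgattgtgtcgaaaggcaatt

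The summits of rank 46 and 106 held none of the 5 motifs, and that of rank 84 held GAGAGA in 2 overlapping matches. Over all 2404 IDR-thresholded summits, windows of this length held AGGTCA in 6.53%, TAGGTCA in 1.21%, TGATAA in 8.49%, CACGTG in 8.44% and GAGAGA in 25.5%. Most NHR-85 sites lacked the hexamer in this window, as did 6 of the 7 in the ccch-1 window. The GC content of the 3 strongest ccch-1 windows was 43.6%, 42.6% and 51.5%, where the median over all IDR-thresholded summits was 44.6%.

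ccch-1 has 2 annotated starts that lie 4782 bp apart. Transcript F38B7.1a.1 starts at 11527831 and has 10 exons for a protein of 460 amino acids. Transcript F38B7.1b.1 starts at 11532613, within intron 3 of the longer transcript, and has 8 exons for a protein of 419 amino acids. Both proteins held 2 matches of the CCCH pattern, at residues 204 and 242 of the longer and 163 and 201 of the shorter, so the part that differs lies before the fingers. In the ccch-1 window, 6 of 7 IDR-thresholded summits fell in intron 3 of the longer transcript, which is 7855 bp long. They spanned 3494 bp and lay on both sides of the internal start. No summit was in the promoter of the upstream start in any of the 4 lists.

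The strongest site lay 1371 bp upstream of the internal start and 3411 bp downstream of the outer start. Its signal was 775 in the pooled reads, 386 in replicate 1 and 395 in replicate 2, with ranks of 46, 44 and 42. The next lay 192 bp upstream of the internal start, the only ccch-1 summit in a promoter. Its signal was 598 in the pooled reads, 301 in replicate 1 and 301 in replicate 2, with ranks of 84, 82 and 77. The third lay 541 bp downstream of the internal start, in the intron after the first exon of the shorter transcript, with signals of 547, 281 and 263 and ranks of 106, 101 and 116. These 3 sites had nearly the same signal in both replicates and their summits in either replicate lay within 36 bp of the pooled summit.

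**Figure D2:**
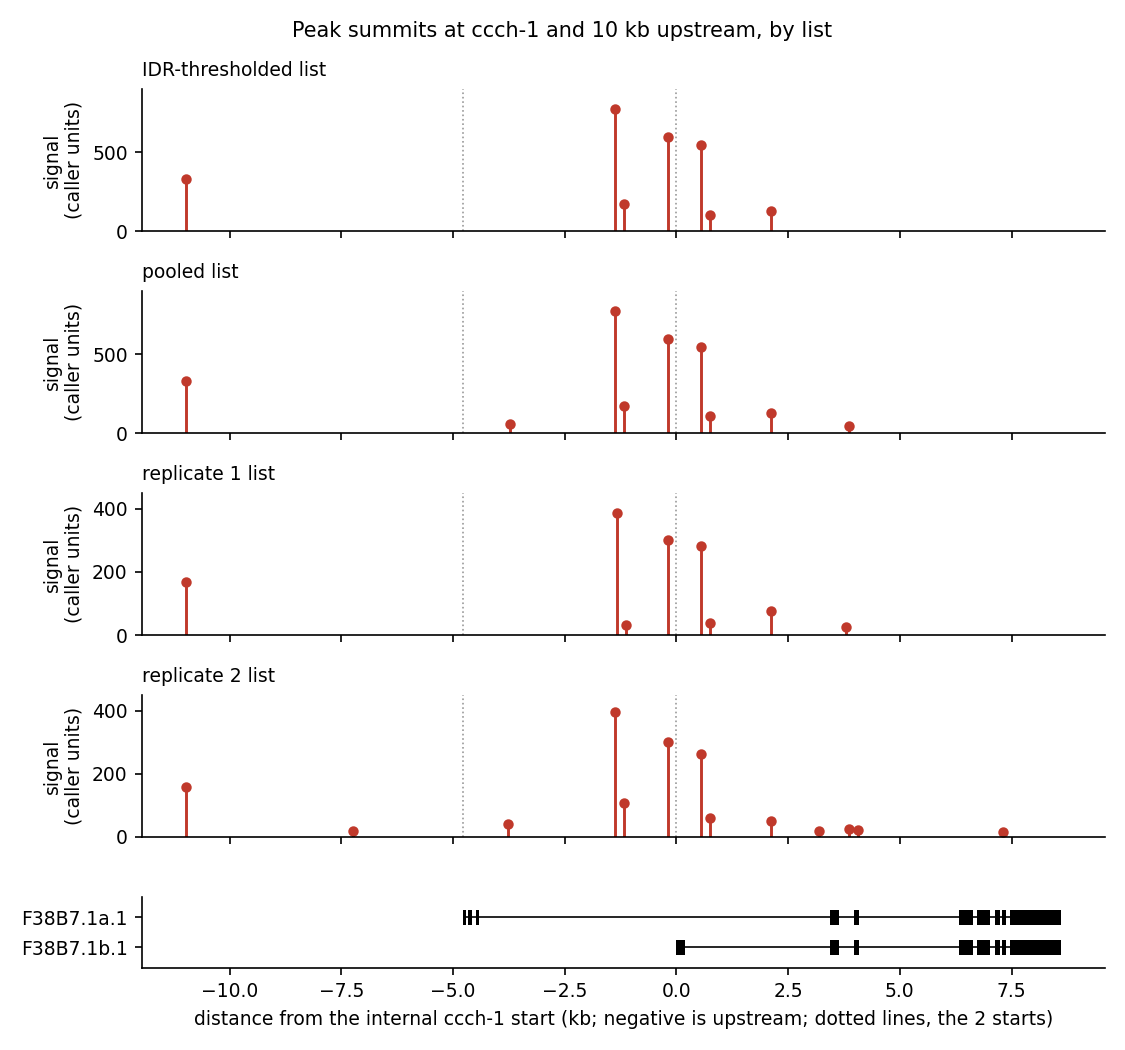
Summits in the ccch-1 body and 10 kb upstream in each of the 4 lists, by distance in kb from the internal start, with the signal in the caller's units as the height and the exons of both transcripts below. The 3 tallest summits around the internal start recur in every list, and none stands at the outer start.

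The other 3 intronic summits were weaker and differed more between the replicates. A summit 1166 bp upstream of the internal start had a pooled signal of 172, with 33.4 in replicate 1 and 107 in replicate 2. Its interval overlapped that of the strongest site, so these were not separate regions. In replicate 2 its interval covered all of that site's interval, and in replicate 1 only a part. How the caller split this region thus enters the ratio of its replicate signals. A summit 740 bp downstream had a pooled signal of 106, with 38.5 and 60.4 in the replicates, and its interval overlapped that of the third site. A summit 2122 bp downstream stood alone, with a pooled signal of 126 and with 75.6 and 49.8 in the replicates. The log2 ratio of replicate 2 to replicate 1 was 1.68, 0.65 and -0.60 at these summits, in that order. Among all IDR-thresholded peaks, 90% lay between -0.62 and 0.69, so only the first of the 3 was outside that range. The pooled list added weak summits 3721 bp upstream and 3859 bp downstream of the internal start, with signals of 60.4 and 48.2. The first of these was absent from replicate 1 and had a signal of 40.6 in replicate 2, and the other was listed in both. Replicate 2 also listed a summit 2457 bp upstream of the outer start, with a signal of 18.1. Further replicate 2 summits lay 3199, 4059 and 7301 bp downstream of the internal start, with signals of 19.3, 21.5 and 17.1. The last 2 of these were in coding exons.

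The seventh IDR-thresholded summit in the window belonged to a neighbour by position. It lay 6190 bp upstream of the outer ccch-1 start, between genes, and 62 bp upstream of pafo-1, a gene for a component of the PAF1 transcription elongation complex. Its signal was 332 in the pooled reads and 169 and 160 in the replicates. Of the short non-coding RNA genes annotated on the minus strand in the same intron, F38B7.15 and F38B7.16 had starts that were nearer than any ccch-1 start to 3 of the intronic summits. The summit 192 bp upstream of the internal start was 171 bp upstream of F38B7.15, so the promoter site cannot be assigned to either by position alone.

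Few genes had as many sites. With 7 IDR-thresholded summits in its window, ccch-1 was among 10 of 19973 protein-coding genes (0.0501%) with at least that number, and the median gene had 0. The 7 include the summit beside pafo-1 and 2 whose intervals overlap that of a stronger ccch-1 summit. The highest number was 9, in the window of mnk-1. Within the gene body alone, 4 genes had at least 6 summits, which were pkg-2 with 8 and ccch-1, hlh-30 and scd-1 with 6 each. Length enters such counts, since the ccch-1 body is 13389 bp long and those of the other members run from 809 to 2382 bp. Among 998 protein-coding genes of at least 10 kb, 16.0% had an IDR-thresholded summit in the body and 4 (0.401%) had at least 6, ccch-1 among them. Per kb of window, ccch-1 had 0.299 summits, oma-2 0.255, ccch-3 0.0908 and pos-1 0.0895. ccch-2, mex-5, mex-6, oma-1 and pie-1 had 0, and the nuclear genome as a whole held 0.0240 per kb. The ccch-3 and pos-1 values come from 1 summit each, which alone puts a window of this size above the genome value. When IDR-thresholded summits less than 1500 bp apart were chained, 2066 groups were formed, of which 1802 held a single summit. The ccch-1 group of 6 had as many summits as any, a number reached by 2 groups in all, and it includes the overlapping intervals described above.

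**Figure D3:**
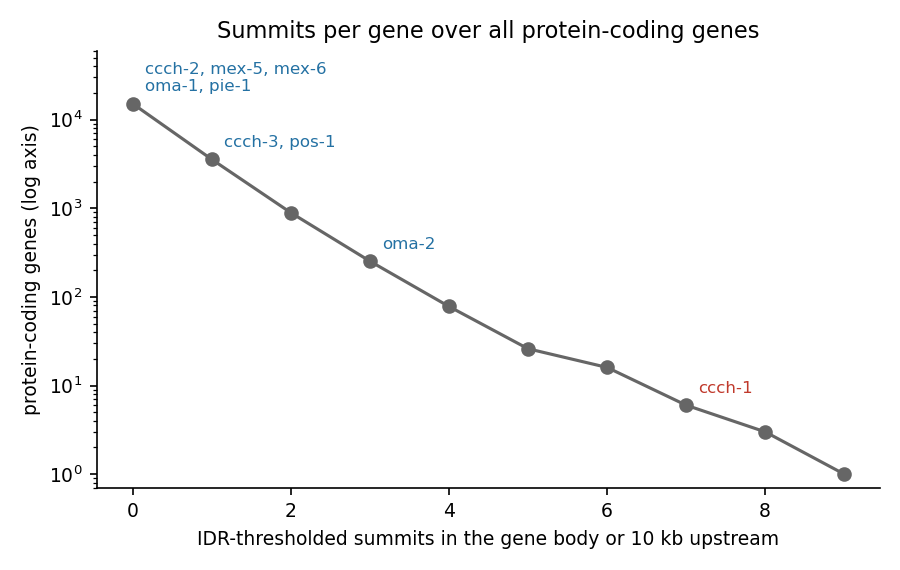
Number of protein-coding genes (log axis) by the number of IDR-thresholded summits in the gene body or 10 kb upstream, with the 9 genes marked at their counts. ccch-1 stands at 7, oma-2 at 3, and 5 of the 9 stand at 0 with most other genes.

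A site at an internal start alone was the less usual arrangement. In 1648 protein-coding genes the outermost starts lie at least 2000 bp apart. Of these, 118 had an IDR-thresholded summit only in the promoter of the upstream start, 59 only in that of the downstream start and 15 in both. ccch-1 was among the 59, which are 30.7% of the genes of this kind with such a summit at an outermost start. No other member has outermost starts that far apart. By the signal of the strongest promoter site over the pooled and both replicate lists, the genes most like ccch-1 were aakg-5, rps-12, ska-3, lin-54 and rpl-12. Their Euclidean distance on the log2 scale was between 0.0563 and 0.0671 over the 3 lists. rps-12 shares its peak with ska-3, and lin-54 shares its peak with rpl-12.

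ccch-3 and ccch-2 are short genes whose functions are less well described. ccch-3 (WBGene00012277, chromosome V, 12658669 to 12659687, minus strand) had a single IDR-thresholded summit at its starts, in the 5′ UTR. The summit lay 93 bp upstream of the innermost start, 38 bp downstream of the middle one and 105 bp downstream of the outermost one. Its signal was 130 in the pooled reads, 75.1 in replicate 1 and 61.1 in replicate 2, with a rank of 1624 of 2404 in the IDR-thresholded list. The histone H3 gene his-74 ends 16 bp upstream on the same strand. Weaker pooled summits lay 3283 and 7868 bp upstream, with signals of 45.7 and 63.9, and were nearer to the coding starts of W05B10.3 and W05B10.4. Replicate 2 listed another 5912 bp upstream, with a signal of 19.2. ccch-2 (WBGene00009537, chromosome IV, 16278202 to 16279010, plus strand) had 1 weak summit in each of the 3 unthresholded lists, all near the start of F38C2.4. The pooled summit lay 6769 bp upstream of ccch-2 in a coding exon of F38C2.4, with signals of 44.3 in the pooled reads, 29.5 in replicate 1 and 16.8 in replicate 2. Another gene with 2 matches of the CCCH pattern, F38C2.7, lies 810 bp from ccch-2 on the opposite strand.

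The germline and early embryo members number 6. In the pooled list, 0 of 6 had a promoter summit, where 19.4% of all protein-coding genes had one. Within the body or 10 kb upstream, 4 of 6 had a pooled summit, where the background was 54.0%. These shares are of 6 genes and were not tested against the background. OMA-1 and OMA-2 act redundantly in oocyte maturation and hold back transcription in the early embryo. oma-2 (WBGene00003865, chromosome V, 8029439 to 8031214, plus strand) was the only one of the 6 with several IDR-thresholded summits. They lay 1805, 2894 and 4045 bp upstream of its start. The nearest, at 1805 bp, had signals of 162 in the pooled reads, 83.4 in replicate 1 and 77.8 in replicate 2. The middle one had 172, 97.9 and 81.8, and the farthest 154, 76.3 and 77.0. The 3 sites thus had close signals, and ranked from 1094 to 1283 in the IDR-thresholded list.

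All 3 sites upstream of oma-2 were nearer to other genes. The nearest lay in an intron of F43H9.4, the plus-strand gene that ends 649 bp before oma-2. The middle one lay 163 bp upstream of the F43H9.4 start, in an exon of the non-coding RNA gene F43H9.5, and the farthest lay 454 bp upstream of F43H9.3. The middle site is shown because it held the E-box in 2 matches within 101 bp (chrV:8026495-8026595, plus strand, E-boxes in capitals), where 8.44% of all IDR-thresholded windows held any.
oma-2 window, summit of rank 1094: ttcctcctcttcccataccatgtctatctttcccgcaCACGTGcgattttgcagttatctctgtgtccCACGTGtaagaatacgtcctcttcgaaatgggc

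The site nearest to oma-2 held TGATAA in 1 match, and the farthest held none of the 5 motifs. oma-1 (WBGene00003864, chromosome IV, 8888976 to 8890999, plus strand) had no IDR-thresholded summit. A weak summit 449 bp downstream of its start, in a coding exon, was listed in all 3 other lists, with signals of 47.6 in the pooled reads, 25.8 in replicate 1 and 20.9 in replicate 2. A summit 177 bp upstream of the start was listed in replicate 2 only, with a signal of 19.4 and a rank of 8644 of 13289. Another, 6435 bp upstream, had a pooled signal of 44.5 and 30.8 in replicate 1, and no partner in replicate 2.

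POS-1 is a posterior translational regulator of maternal messages such as glp-1. pos-1 (WBGene00004078, chromosome V, 8414086 to 8415254, plus strand) had an IDR-thresholded summit 6921 bp upstream of its start, between genes and 3430 bp upstream of F52E1.2. Its signal was 125 in the pooled reads, 46.1 in replicate 1 and 93.6 in replicate 2. The log2 ratio of replicate 2 to replicate 1 was 1.02, above the range that held 90% of IDR-thresholded peaks. Replicate 1 listed another summit 6753 bp upstream, with a signal of 30.7, whose interval also overlapped the pooled one. The ratio uses only the replicate 1 summit nearer to the pooled summit, so a split of the site in replicate 1 enters it. The pooled list held 3 more summits from 7645 to 9827 bp upstream, with signals of 44.8 to 75.2. All 3 were nearest to the coding start of F52E1.9, and no list had a summit in the pos-1 body or promoter. A summit 5674 bp upstream, nearer to F52E1.2, was listed in replicate 1 with a signal of 28.0.

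MEX-5 and MEX-6 are closely related proteins that act redundantly in the anterior of the early embryo, and PIE-1 blocks transcription in the germline precursors. mex-5 (WBGene00003230, chromosome IV, 13353723 to 13356104, plus strand) had no pooled summit. Replicate 1 listed a summit 2033 bp downstream of the start, in the 3′ UTR, with a signal of 28.5, and replicate 2 listed another 9836 bp upstream, with a signal of 16.0. Neither was seen in the other replicate. mex-6 (WBGene00003231, chromosome II, 9524174 to 9526359, plus strand) had 1 summit in the 4 lists together, 6705 bp upstream in replicate 1 and near gcy-1. Its signal of 25.03 ranked 8087 of 8092. pie-1 (WBGene00004027, chromosome III, 12426893 to 12429195, plus strand) had pooled summits 2610 and 5141 bp upstream of its outer start, with signals of 51.1 and 41.8. The first had a partner in replicate 1 only and the second, 34 bp upstream of tat-1, in replicate 2 only. A promoter summit 954 bp upstream of the outer start, with a signal of 30.6, was listed in replicate 1 only. Replicate 2 listed summits 1587 and 7044 bp upstream of the outer start, with signals of 18.2 and 16.7.

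**Figure D4:**
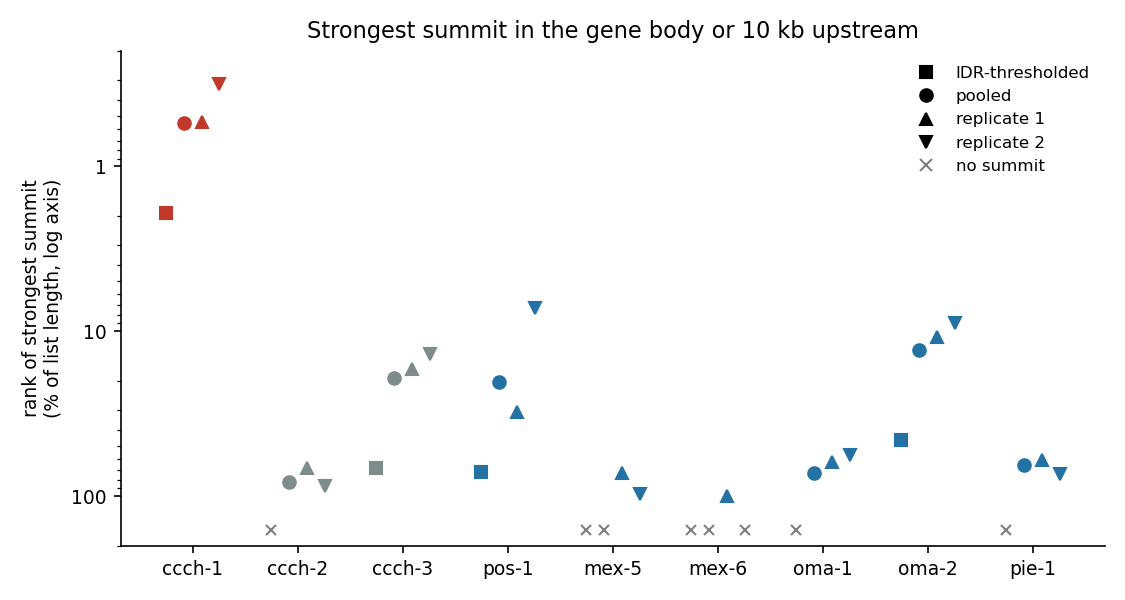
Rank of the strongest summit in the gene body or 10 kb upstream, as a percentage of the length of its list (log axis, strongest at the top), for the 9 genes in the 4 lists. Crosses mark lists with no summit, and positions are to be read within a list because the lists differ in length. ccch-1 is above all other members in each list, and the strongest sites of ccch-3, pos-1 and oma-2 come next.

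The replicate lists reach further down than the IDR-thresholded list. In replicate 1, 9 of 9 members had a summit in the body or 10 kb upstream, where the background was 54.7%, and 3 of 9 had one in a promoter, where it was 18.0%. In replicate 2 the counts were 8 of 9 and 3 of 9, where the backgrounds were 68.5% and 25.7%. The third gene differed, pie-1 in replicate 1 and oma-1 in replicate 2. In the pooled list 7 of 9 members had a summit in the window, where the background was 54.0%. Of 5688 replicate 1 peaks ranked below the first 2404, 60.8% overlapped a peak of replicate 2, so a weak peak of 1 replicate was often not seen in the other. Sequence uniqueness differed little between the promoters. The share of 31-mers found at no other place in the genome was 93.6% at ccch-2, 94.2% at pos-1 and between 98.8% and 100% at the other 7 genes.

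**Figure D5:**
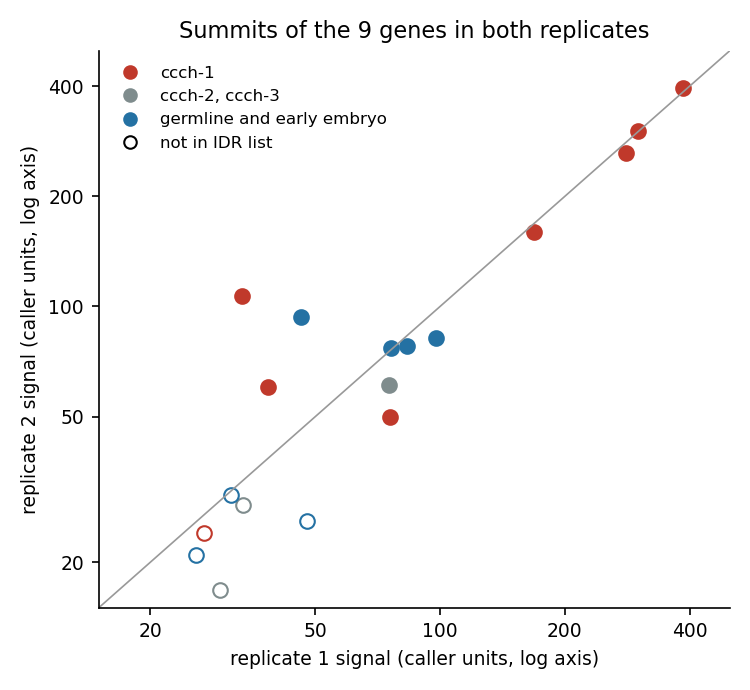
Signal in replicate 1 against replicate 2 (log axes, caller's units) for the pooled summits of the 9 genes with a partner in both replicates, and the line of equality. The 4 strongest, all in the ccch-1 window, lie on the line, and the widest departure is the ccch-1 summit with 33.4 and 107. The interval of that summit overlaps that of the strongest ccch-1 summit.

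The wider family and its pathway were read by their counts in promoters. By the CCCH pattern in the translated coding sequences (cysteine, 7 to 9 residues, cysteine, 5 residues, cysteine, 3 residues, histidine), 15 other genes had at least 2 matches and 27 had 1. The pattern is a text match and takes in some proteins of other kinds, such as CED-1, a receptor for the engulfment of cell corpses. It finds a single match in mex-5, mex-6 and ccch-3, but a finger with other spacing is missed. The numbers are thus of matches and not of fingers. Not all matching genes encode CCCH proteins, so the shares that follow are of genes with a match. An IDR-thresholded promoter summit was present at 2 of 15 (13.3%) and 6 of 27 (22.2%), beside 8.09% of all protein-coding genes. In the first set they were T26A8.4, with a pooled signal of 199.5 at 60 bp upstream, and mex-1, with 158 at 913 bp upstream. MEX-1 is a CCCH protein of the early embryo, but its summit was 180 bp upstream of W03C9.5, the nearer coding start. In the second set the strongest were osm-11 (370), a secreted ligand gene of the Notch pathway, zfp-3 (338), C07H6.9 (172) and F27D4.4 (154). The last 2 were nearer to the coding starts of sap-140 and F27D4.7.

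Of 17 genes for the turnover of CCCH proteins and embryonic polarity, 4 (23.5%) had an IDR-thresholded promoter summit, where the share of all protein-coding genes, here and for the lists that follow, was 8.09%. They were the cortical polarity genes par-2 (pooled signal 254), par-3 (105) and pkc-3 (97.3), and elb-1 (105), which encodes elongin B of the ubiquitin ligase that removes CCCH proteins from somatic cells. The par-2 summit was 29 bp downstream of the start of rab-18. Of 30 other germline and early embryo RNA regulators, 7 (23.3%) had one, led by ifet-1 (589), larp-1 (562), atx-2 (212) and nos-3 (179). IFET-1 is a translational repressor that binds the cap-binding protein, LARP-1 a La-related protein, ATX-2 the ataxin-2 homologue and NOS-3 a Nanos homologue. The first 3 of these summits were nearer to the coding starts of rps-1, wip-1 and ecps-1, and the nos-3 summit lay 52 bp upstream of nos-3 itself. Germ granule genes had 0 of 11, and targets and partners in embryonic fate had 1 of 10, which was skn-1 (227) at 485 bp upstream. Of 16 genes for deadenylation and decapping, 1 (6.25%) had a summit, ntl-2 (299) of the CCR4-NOT complex. In the pooled list, where the share of all protein-coding genes was 19.4%, the shares of the 7 lists in the order given here were 20%, 33.3%, 41.2%, 36.7%, 9.09%, 10% and 43.8%. No test was run on these lists, and mex-1 and moe-3 are each counted in 2 of them.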

How the data were processed

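Peak lists of 2 biological replicates of NHR-85-GFP larvae were used. The deposited files are narrowPeak tables called on ce11 per replicate and on both replicates together against a control, and an IDR-thresholded list made from these, per the file descriptions. Not given in the sources used here are the peak caller, its thresholds, the aligner and the nature of the control. The signal of a peak is the authors' deposited value in the caller's units. The deposited −log10 q-value reached its ceiling in 67.8% of IDR-thresholded peaks and was not used to rank. The deposited summit, one of the other values in each line, gave all positions. The lists on ce10 were not used here.

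Lines with the same interval were reduced to the strongest. Genes came from Ensembl release 115 and sequence from RefSeq, both of WBcel235, which is ce11. Proteins were translated from the coding exons, because the protein table that the design foresaw was not used here. The genes and lists were chosen with earlier results of these data known. Named were all 9 genes, the genes nearest to their summits, up to 4 of the strongest genes of each list with an IDR-thresholded promoter summit, and the 5 genes most like ccch-1. Genes with as many summits as ccch-1 and CED-1 were named after their values were seen. Alternatives changed the reach, the promoter, the peak set, the replicate and the overlap rule. Counting steps were tested on simulated data (Python 3.11.15, NumPy 2.4.6, pandas 2.3.3).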

Additional observations from a re-analysis of the deposited data

How the results depend on the processing

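ccch-1 kept 5 to 7 summits under every alternative run, and its strongest site ranked 42 and 44 in the single replicates against 46. Members with an IDR-thresholded summit in the window numbered 4, 3 with a reach of 5 or 2 kb, and 3 to 4 when the list was replaced by the strongest 2404 peaks of a single replicate. They numbered 2 when the reach ended at the next coding gene, which removes pos-1 and oma-2, and 2 in the stronger 1202 peaks. Members with an IDR-thresholded promoter summit numbered 2, 1 in the stronger 1202 peaks and 3 with a promoter of 2000 bp, which adds oma-2. Germline and early embryo members with a pooled promoter summit numbered 0, but 1 with a promoter of 2000 bp (oma-2) and 1 in either replicate alone (pie-1 or oma-1). The background share of genes with a summit in the window was 16.9% with a reach of 5 kb, 11.6% with 2 kb and also 11.6% when ended at the next coding gene, 14.0% in the stronger 1202 peaks and 24.8% by overlap. The background promoter share was 6.31% at 500 bp, 10.6% at 2000 bp, 6.09% with nearest starts only, 4.34% in the stronger 1202 peaks, 8.77% by overlap and 7.98% to 8.04% without either replicate. Depth is unknown, so an unlisted site may lie below a list's lowest signal.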

Other observations

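The 4 members with an IDR-thresholded summit in the body or 10 kb upstream, ccch-1, ccch-3, pos-1 and oma-2, are the 4 members on chromosome V. The 5 members on other chromosomes had none. Of 4994 protein-coding genes on V, 982 (19.7%) had such a summit, the lowest share of any chromosome, where III had 31.3%. The pattern was seen after the values were known, and no test was run on it.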
